A study of Mus musculus with 4 samples.

Results

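Glycan-processing genes were examined in cloned mouse Th1 cells, the interferon gamma-producing class of CD4 helper T cells, on 4 microarrays. The family comprised the sialyl-, galactosyl-, N-acetylglucosaminyl-, N-acetylgalactosaminyl- and fucosyltransferase genes and the mannosidase genes, chosen by gene symbol alone (St3gal, St6gal, St8sia, B3gal, B3gnt, B4gal, Fut, Galnt, Mgat, Gcnt and Man followed by their numbers or letters). By this rule 65 of 12422 probe sets belonged to the family, and they represented 55 of 8251 genes. Of these, 49 encode enzymes that build glycans and 6 encode mannosidases, which trim them, so the set is wider than transferases. Each gene was read from its probe set with the highest mean intensity. The 2 anergic arrays held RNA of the clone after anergy had been induced with antibody to CD3 bound to a plate, and the 2 control arrays held RNA of normal Th1 clone cells in their quiescent state. The labels speak of Th1 clones only, and none gives the mouse strain, the clone's name, whether 1 or several clones were used, the time of treatment, or whether replicate arrays had cultures of their own. The p-values therefore reflect only how far replicate arrays lay apart, and that distance can be technical.

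Most proteins and many lipids of the T cell surface carry sugar chains. N-glycans are attached as a block in the endoplasmic reticulum, cut back by mannosidases and then branched and extended in the Golgi by N-acetylglucosaminyl- and galactosyltransferases, whereas mucin-type O-glycans begin with a single N-acetylgalactosamine placed by a Galnt enzyme. Sialic acid and the fucose of chain ends, unlike core fucose, are added late and help to set which lectins can bind. Selectins read fucosylated and sialylated ends, galectins read exposed galactose and polylactosamine, and siglecs read sialic acid. In T cells these ends are known to change with activation and to affect homing, receptor clustering and the threshold of T cell receptor signalling.

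The 250 bases before and 50 bases after the annotated start are shown for St3gal3, the member that passed the test, and for 3 further genes. These are B3gnt2, St6galnac6 and its neighbour St6galnac4, sialyl- or N-acetylglucosaminyltransferase genes with both anergic arrays above both control arrays. The 3 were chosen by hand, as St3gal4, Mgat1 and St6gal1 had the same order of arrays and are not shown. The sequences are from RefSeq (build GRCm38.p6), at chr4:118134897-118135196 (minus strand) for St3gal3, chr11:22859686-22859985 (minus strand) for B3gnt2, chr2:32599459-32599758 (plus strand) for St6galnac6 and chr2:32586828-32587127 (plus strand) for St6galnac4. Capitals mark matches, on either strand, to GGGCGG, the Sp1 box, or GCGNGGGCG, the Egr site; the 2 kinds of match overlap in B3gnt2.
St3gal3: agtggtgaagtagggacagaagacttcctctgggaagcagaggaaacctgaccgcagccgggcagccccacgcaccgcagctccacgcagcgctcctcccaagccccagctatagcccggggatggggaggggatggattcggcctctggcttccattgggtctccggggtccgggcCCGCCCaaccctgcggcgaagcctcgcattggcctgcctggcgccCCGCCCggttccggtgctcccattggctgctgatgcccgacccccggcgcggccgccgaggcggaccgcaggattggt
B3gnt2: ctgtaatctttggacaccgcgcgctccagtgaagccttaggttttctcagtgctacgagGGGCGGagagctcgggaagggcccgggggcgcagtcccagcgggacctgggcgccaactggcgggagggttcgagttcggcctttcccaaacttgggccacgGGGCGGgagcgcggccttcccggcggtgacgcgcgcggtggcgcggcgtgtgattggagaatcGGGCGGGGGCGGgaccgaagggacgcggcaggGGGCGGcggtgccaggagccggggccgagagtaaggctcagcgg
St6galnac6: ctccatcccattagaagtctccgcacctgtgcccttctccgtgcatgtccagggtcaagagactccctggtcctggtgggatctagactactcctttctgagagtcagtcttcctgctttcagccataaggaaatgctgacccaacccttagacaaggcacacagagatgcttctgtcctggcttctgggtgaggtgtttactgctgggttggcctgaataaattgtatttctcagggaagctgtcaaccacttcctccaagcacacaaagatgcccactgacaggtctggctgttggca
St6galnac4: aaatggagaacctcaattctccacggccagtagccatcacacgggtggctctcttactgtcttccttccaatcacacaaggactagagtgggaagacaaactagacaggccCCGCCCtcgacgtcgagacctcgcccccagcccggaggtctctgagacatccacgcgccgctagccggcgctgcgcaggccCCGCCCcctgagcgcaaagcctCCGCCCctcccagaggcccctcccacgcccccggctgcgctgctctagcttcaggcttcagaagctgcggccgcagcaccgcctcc
The Sp1 box occurred 2 times in the St3gal3 window, 5 times in that of B3gnt2, 3 times in that of St6galnac4 and 0 times in that of St6galnac6, and the Egr site occurred 1 time, in B3gnt2. Neither TGANTCA, the AP-1 site, nor GGAAAA, the NFAT core, occurred in any of the 4 windows. Of 32851 promoter windows of this length, 35.7% held the Sp1 box, 5.55% the Egr site, 7.81% the AP-1 site and 23.4% the NFAT core. Promoters were matched for 38 of the 55 members, with 54 windows, of which 59.3% held the Sp1 box, 9.26% the Egr site, 1.85% the AP-1 site and 24.1% the NFAT core. GC content was 70.0% for St3gal3, 71.3% for B3gnt2, 65.7% for St6galnac4 and 52.0% for St6galnac6, against a median of 52.7% over all windows and 61.2% over the members' windows. St6galnac4 and St6galnac6 lie next to each other on chromosome 2, with 0 protein-coding genes between them in RefSeq's order, and B4galt2 and St3gal3 lie on chromosome 4 with 4 such genes between them.

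Values are intensities on the linear scale as deposited, and differences are anergic minus control on the scale log2(intensity + 29.15), which understates changes of dim genes. The trimmed mean intensity was 500.3 on all 4 arrays, and the median intensity was 134.2 and 175.8 on anergic arrays 1 and 2 and 146.5 and 191.2 on control arrays 1 and 2. The geometric mean of 9 bacterial spike-in probe sets was 870.4 and 1014 on the anergic arrays, against 948.9 on control array 1 and 1972 on control array 2, the array that stands apart here. The T cell genes Cd3d, Cd3e, Cd3g and Cd4 were at 2068.3 or above on every array, Cd247 lay between 262.5 and 353.1, and the CD8 chain genes Cd8a and Cd8b1 were at 21.9 or below. The summed level of 7 marker lists (T cells and 6 lists for other cells) overlapped between the groups in each case. Among 15 tested markers of other cells, the macrophage and dendritic cell marker Cd68 rose (497.6 and 531.5 on anergic arrays, 71.0 and 91.3 on control arrays, adjusted p = 0.0105). Its control values lay under the intensity of about 92.4 that the filter on low values required, so Cd68 was tested through its anergic arrays alone. The macrophage gene Lyz2, below the filter and not tested, was at 11.7 and 11.4 on anergic arrays against 129.1 and 73.3 on control arrays. Of the 7 genes of that list 5 were tested and 1 passed, and the 7 genes' summed intensity was 1504.9 and 2089.6 on anergic arrays and 1313.5 and 1663.3 on control arrays. The part of such cells in the results below was not tested.

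Of the 55 members, 36 passed the filter on low values, a mean log2 value above 6.93, which corresponds to an intensity of about 92.4. St3gal3 rose in anergic cells and was the only member that passed, while 35 did not pass and 0 fell in limma. It passed the filter through its anergic arrays alone, with a mean log2 value of 8.47 on them and 5.71 on the control arrays, and with no filter it did not pass (adjusted p = 0.0598). Over all 5583 genes tested, 1.33% rose and 0.842% fell, or 2.17% in either direction (74 higher and 47 lower, and 46 and 13 after each array was centred on its median). At an unadjusted p under 0.05 there were 5 members, 3 with higher and 2 with lower values in anergic cells, or 13.9% of those tested, beside 12.7% of all genes (6.32% higher and 6.39% lower). The arrays of the groups did not overlap for 18 of 36 members (9 above and 9 below), or 50%, beside 41.2% of all genes (17.2% above and 24% below). The share at an unadjusted p lay near that of all genes. The median difference was 0.05 over the 36 members and -0.09 over all genes, and 0.15 and 0.02 after centring, which moved the median of all genes by about 0.1. For 6 of the 36, the mean of 1 group lay under the filter's threshold, so that they were tested through the brighter group alone: St3gal3 and St8sia5 through the anergic arrays, and B3galt2, Galnt6, Galnt10 and St6galnac2 through the control arrays.

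St3gal3 encodes an enzyme that adds sialic acid to the terminal galactose of N-acetyllactosamine chains, mainly on glycoproteins, and supplies precursors of sialylated Lewis antigens. Its intensity was 517.0 and 202.4 on anergic arrays 1 and 2, against 14.5 and 33.4 on control arrays 1 and 2. The anergic arrays differed much from each other, and both stood well above the control arrays, which were at the level of the dimmest probe sets, with array 20th percentiles between 20.7 and 35.9. The log2 difference was 2.77 ± 0.55 (SE, n = 2 each, adjusted p = 0.0314). With control values this dim the size depends on the pseudocount: it was 3.81 with a pseudocount of 1 (adjusted p = 0.039) and 1.43 with one at the array median (adjusted p = 0.044). Fits that leave out 1 array have 1 residual degree of freedom and assume that the lone array of a group varies like the pair of the other group. Left without anergic array 1, the difference was 2.15 ± 0.72 and did not pass (adjusted p = 0.352). The call was also lost after quantile normalization (2.82, adjusted p = 0.0505) and after centring (2.87, adjusted p = 0.0506). St3gal3 has 1 probe set on the array, so no second probe set bears on it.

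The other St3gal genes, whose enzymes also cap galactose with sialic acid, did not pass. St3gal4, which serves N-acetyllactosamine and helps to make selectin ligands, was at 557.0 and 663.4 on anergic arrays and 372.4 and 448.1 on control arrays (difference 0.54 ± 0.29, adjusted p = 0.514). Its groups did not overlap. St3gal6, an enzyme of similar substrate, pointed the other way, at 19.1 and 59.6 on anergic arrays and 86.8 and 129.8 on control arrays, and lay below the filter. St3gal1, which caps the core 1 O-glycans of CD43 and CD45, was at 283.6 and 458.9 on anergic arrays and 213.2 and 546.9 on control arrays (0.06 ± 0.44, adjusted p = 0.973). For St3gal1 the 2 arrays numbered 2 were the higher ones in both groups, and the groups overlapped. St3gal2, which acts on core 1 chains and gangliosides, and St3gal5, the GM3 synthase that starts most gangliosides, were dim, between 12.3 and 45.1 on the 4 arrays, and were not tested.

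**Figure D1:**
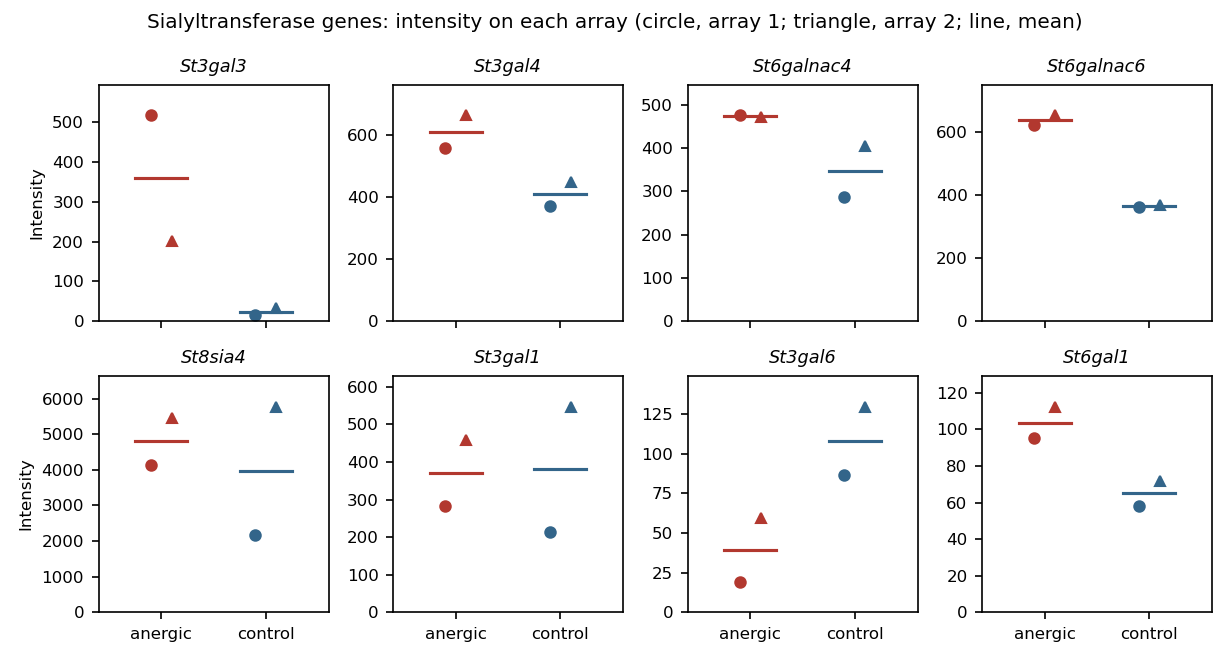
Intensities (linear scale, each vertical axis from 0) of 8 sialyltransferase genes on the 2 anergic and 2 control arrays; circles are arrays 1, triangles arrays 2 and lines group means. St3gal3 was at 517.0 and 202.4 on anergic arrays and at 14.5 and 33.4 on control arrays, whereas the St8sia4 and St3gal1 panels show groups that overlap.

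The St6 enzymes attach sialic acid to other positions of the chain. St6galnac6, which acts on sialylated glycolipids, was at 624.4 and 653.5 on anergic arrays and 363.7 and 368.0 on control arrays. Both groups were tight and did not overlap, and the difference of 0.76 ± 0.29 did not pass (unadjusted p = 0.0246 in limma, adjusted p = 0.287). Its neighbour St6galnac4, which extends sialylated core 1 O-glycans, was at 475.2 and 472.6 on anergic arrays and 287.9 and 405.0 on control arrays (0.44 ± 0.32, adjusted p = 0.67). Its dimmer probe set gave the same order of the groups, at 67.1 and 47.2 on anergic arrays and 20.8 and 12.3 on control arrays. All these values lay under the filter's intensity of about 92.4, and the control values under their arrays' 20th percentiles (26.7 and 35.9). St6galnac3 differed by 0.08 ± 0.49 and St6galnac2, which acts on core 1 O-glycans, by -0.45 ± 0.47, and neither passed. St6gal1, the enzyme of B and T cells that makes CD22 ligands on N-glycans, was below the filter, at 95.1 and 112.5 on anergic arrays and 58.3 and 71.8 on control arrays. The dimmer probe set of St6gal1 was at 23.2 and 6.1 on anergic arrays and 5.5 and 15.6 on control arrays, with overlapping groups. St6galnac1 and St6galnac5 were also below the filter, with no value above 53.8.

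The St8sia enzymes add sialic acid to sialic acid. St8sia4, which builds polysialic acid, was bright, at 4140.7 and 5453.5 on anergic arrays and 2167.7 and 5774.4 on control arrays (0.42 ± 0.39, adjusted p = 0.774). The control arrays spanned the anergic ones: without control array 2 the difference was 1.12 (adjusted p = 0.00354), and without control array 1 it was -0.28 (adjusted p = 0.77). In fits without a control array limma gave all genes 1 shared intensity trend of the spread, drawn from the anergic pairs of all genes. Adjusted p-values under 0.05 from such fits are given for this gene and for B3galt2 below as values and support no call. St8sia1, the GD3 synthase, was at 188.4 and 121.4 on anergic arrays and 222.1 and 96.4 on control arrays (0.03 ± 0.48, adjusted p = 0.987). St8sia5, an enzyme of more heavily sialylated gangliosides, was at 152.4 and 153.7 on anergic arrays and 37.3 and 169.1 on control arrays, and its difference of 0.67 ± 0.57 was -0.12 without control array 1. St8sia2 and St8sia3 were below the filter, between 31.6 and 79.1. Among the 10 sialyltransferase genes tested, 9 differences were above 0 and 1 below, with a median of 0.43, where 41.9% of all genes tested were above 0. St3gal3 and St8sia5 are among the 9 and were tested through their anergic arrays alone. Over all 18 on the array, dim ones included, 12 were above 0 and 6 below, where 39.6% of all genes were above 0. The count of 9 was the same after quantile normalization and after centring, which moved the median of all genes from -0.09 to 0.02. It lay between 6 and 8 when 1 array was left out, 6 without control array 1. When arrays of the same number were compared, 5 of the 10 differed in 1 direction in both pairs, beside 3783 of 5583 genes.

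Galactosyl- and N-acetylgalactosaminyltransferases extend the chains. B3galt2, which adds galactose to N-acetylglucosamine to make type 1 chains, was at 23.4 and 109.1 on anergic arrays and 124.7 and 424.7 on control arrays. The groups did not overlap, though anergic array 2 came close to control array 1, and the difference of -1.63 ± 0.65 did not pass (unadjusted p = 0.0305 in limma, adjusted p = 0.315). B3galt2 was tested through its control arrays alone, with a mean log2 value of 8.05 on them and 6.41 on the anergic arrays. The difference was -2.41 without control array 1 (adjusted p = 0.0114) and -0.85 without control array 2. B4galt1, the main enzyme of N-acetyllactosamine, was level across the arrays, at 1758.4 and 1874.8 on anergic arrays and 1817.4 and 1624.3 on control arrays (0.08 ± 0.24, adjusted p = 0.947). B4galnt1, which makes the gangliosides GM2 and GD2, was bright, at 6140.3 and 4514.4 on anergic arrays and 4563.7 and 2994.0 on control arrays (0.51 ± 0.27, adjusted p = 0.514), and anergic array 2 lay just below control array 1. B3galt6, an enzyme of the proteoglycan linker, was at 149.6 and 170.6 on anergic arrays and 219.3 and 225.4 on control arrays (-0.41 ± 0.38). B4galt3 (-0.25 ± 0.37), B3galt4, the GM1 synthase (-0.11 ± 0.47), and B3galnt2 (0.02 ± 0.49) overlapped between the groups. B3galnt1, B3galt1, B4galnt2, B4galt2 and B4galt6 were below the filter, with values between 3.2 and 96.4.

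N-acetylglucosaminyltransferases branch and lengthen the chains. B3gnt2 is the main enzyme of polylactosamine, the repeating chain that galectins bind, and T cells of mice without it are known to respond more strongly to stimulation. It was at 1863.5 and 1483.4 on anergic arrays and 1029.8 and 525.7 on control arrays. Both anergic arrays were above both control arrays, and control array 2 was the lowest. The difference was 1.14 ± 0.33, the largest above 0 in the family after St3gal3, and did not pass (unadjusted p = 0.0066 in limma, adjusted p = 0.144). The difference was 1.61 without control array 1 and 0.68 without control array 2. Its dimmer probe set was at 204.9 and 229.7 on anergic arrays and 188.4 and 193.2 on control arrays, a difference of 0.16.

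Of the branching enzymes of N-glycans, Mgat1 and Mgat2 were tested and neither passed. Mgat5, a branching enzyme of textbook role in T cells, was not among the members, so the class is covered only in part. Mgat1, which opens the way to hybrid and complex N-glycans, was at 1285.2 and 1802.8 on anergic arrays and 1255.1 and 1247.7 on control arrays (0.28 ± 0.26, adjusted p = 0.776), but its dimmer probe set gave -0.35, with overlapping groups. Mgat2, the next enzyme, was at 523.8 and 402.0 on anergic arrays and 559.5 and 387.6 on control arrays, and its difference of -0.02 ± 0.32 was above 0 after quantile normalization and after centring. Gcnt1, which makes the core 2 branch that carries selectin ligands on T cells, was at 94.7 and 166.4 on anergic arrays and 141.9 and 158.1 on control arrays (-0.20 ± 0.45, adjusted p = 0.921). Gcnt2, the I-branching enzyme, was at 114.8 and 171.4 on anergic arrays and 176.4 and 244.3 on control arrays (-0.48 ± 0.41, adjusted p = 0.739). Mgat3, which adds the bisecting residue, was below the filter, between 15.8 and 35.0.

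**Figure D2:**
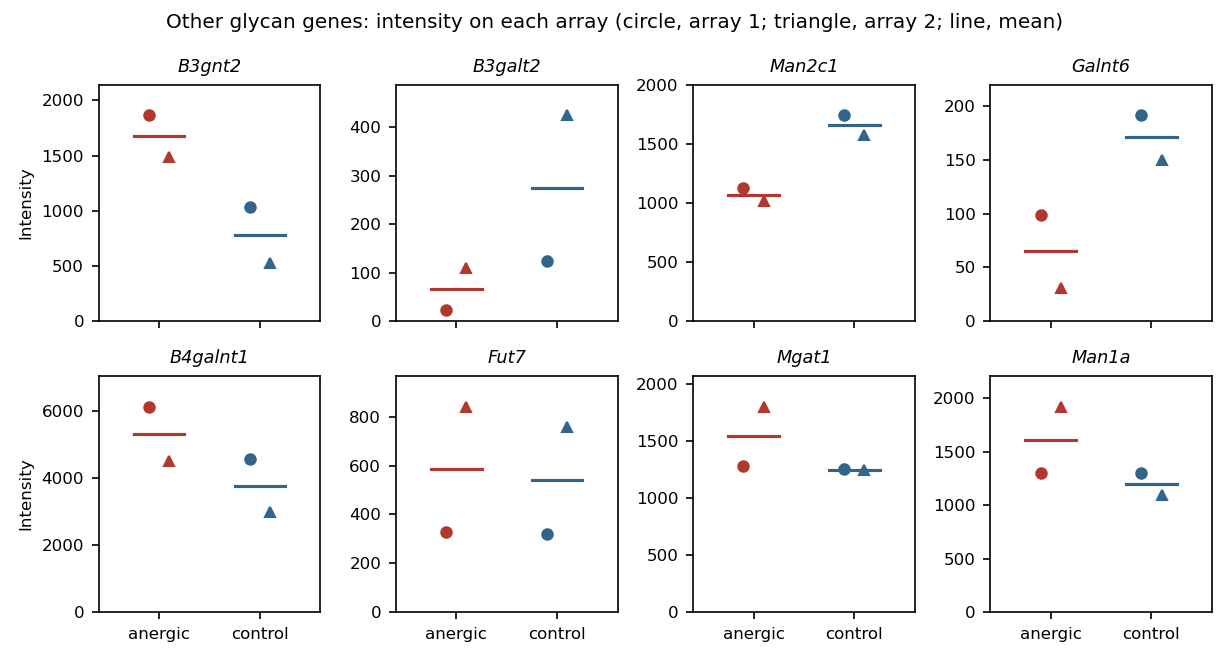
Intensities (linear scale, each vertical axis from 0) of 8 further members on the 2 anergic and 2 control arrays; circles are arrays 1, triangles arrays 2 and lines group means. For B3gnt2 the anergic arrays, at 1863.5 and 1483.4, lay above the control arrays, at 1029.8 and 525.7; for Fut7 the arrays numbered 2 were high in both groups.

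Of 6 fucosyltransferase genes on the array, 2 were tested; over all 6, 1 difference was above 0 and 5 below. Fut7, the enzyme that completes sialyl Lewis x on T cells for binding to selectins, was at 329.6 and 840.7 on anergic arrays and 321.9 and 755.7 on control arrays (0.09 ± 0.48, adjusted p = 0.967). The arrays numbered 2 lay well above the arrays numbered 1 in both groups, and the groups overlapped. Fut8, the core fucosyltransferase of N-glycans, was at 165.6 and 190.6 on anergic arrays and 160.2 and 222.5 on control arrays, and its difference of -0.08 ± 0.39 was above 0 after quantile normalization and after centring. Fut4, which makes Lewis x structures, was just below the filter, with a mean log2 value of 6.82, at 23.9 and 66.3 on anergic arrays and 190.8 and 116.4 on control arrays. With no filter its difference was -1.33 ± 0.50 (unadjusted p = 0.0265 in limma, adjusted p = 0.386 over 8251 genes). Fut9, another Lewis x enzyme, was dim throughout, at 2.2 and 12.8 on anergic arrays and 33.6 and 38.7 on control arrays. Its difference with no filter was -0.85 ± 0.27 (unadjusted p = 0.0122 in limma, adjusted p = 0.269). Fut1 and Fut2, which make the H antigen, were between 10.9 and 43.8.

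The Galnt genes encode the enzymes that start mucin-type O-glycans, and all 7 on the array were tested. Galnt6 was at 98.9 and 31.2 on anergic arrays and 191.2 and 150.2 on control arrays, with no overlap (-1.18 ± 0.53, unadjusted p = 0.0507 in limma, adjusted p = 0.396). Galnt1, a widely expressed member, was at 856.0 and 927.8 on anergic arrays and 1340.9 and 1086.3 on control arrays (-0.43 ± 0.26, adjusted p = 0.582). Galnt3 stood higher, at 364.1 and 426.5 on anergic arrays and 280.5 and 326.3 on control arrays (0.35 ± 0.32, adjusted p = 0.757). The dimmer probe set of Galnt3 gave 0.73 with overlapping groups. Galnt2 (0.08 ± 0.27) and Galnt11 (0.18 ± 0.29) were above 0, and Galnt10 (-0.58 ± 0.48) and Galnt4 (-0.56 ± 0.50) below. The second probe set of Galnt4 gave 0.73. The groups did not overlap for 5 of the 7 genes, 2 with the anergic arrays above and 3 below, beside 41.2% of all genes. Galnt6 and Galnt10 are among the 3 and were tested through their control arrays alone, so no conclusion is drawn from this count. In limma 0 of the 7 passed or had an unadjusted p under 0.05.

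Mannosidases trim N-glycans in the secretory route or break glycans down. Man2c1, the cytosolic enzyme that degrades free oligosaccharides, was at 1124.1 and 1017.1 on anergic arrays and 1742.9 and 1573.4 on control arrays. The groups were tight and apart, and the difference of -0.62 ± 0.24 did not pass (unadjusted p = 0.0306 in limma, adjusted p = 0.315). Man1a, a Golgi enzyme that trims the chain before branching, was at 1305.1 and 1920.0 on anergic arrays and 1301.2 and 1098.9 on control arrays (0.40 ± 0.27, adjusted p = 0.647), and its second probe set gave 0.36. Man2a1, which removes the last mannoses before complex chains form, was at 1082.4 and 1622.5 on anergic arrays and 1361.0 and 1286.3 on control arrays (0.00 ± 0.27, adjusted p = 0.998). Man1b1 of the endoplasmic reticulum was at 471.7 and 426.1 on anergic arrays and 624.0 and 518.8 on control arrays (-0.33 ± 0.29). The lysosomal gene Man2b1 differed by 0.10 ± 0.26, and Man1a2 was below the filter, at 10.6 or less.

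**Figure D3:**
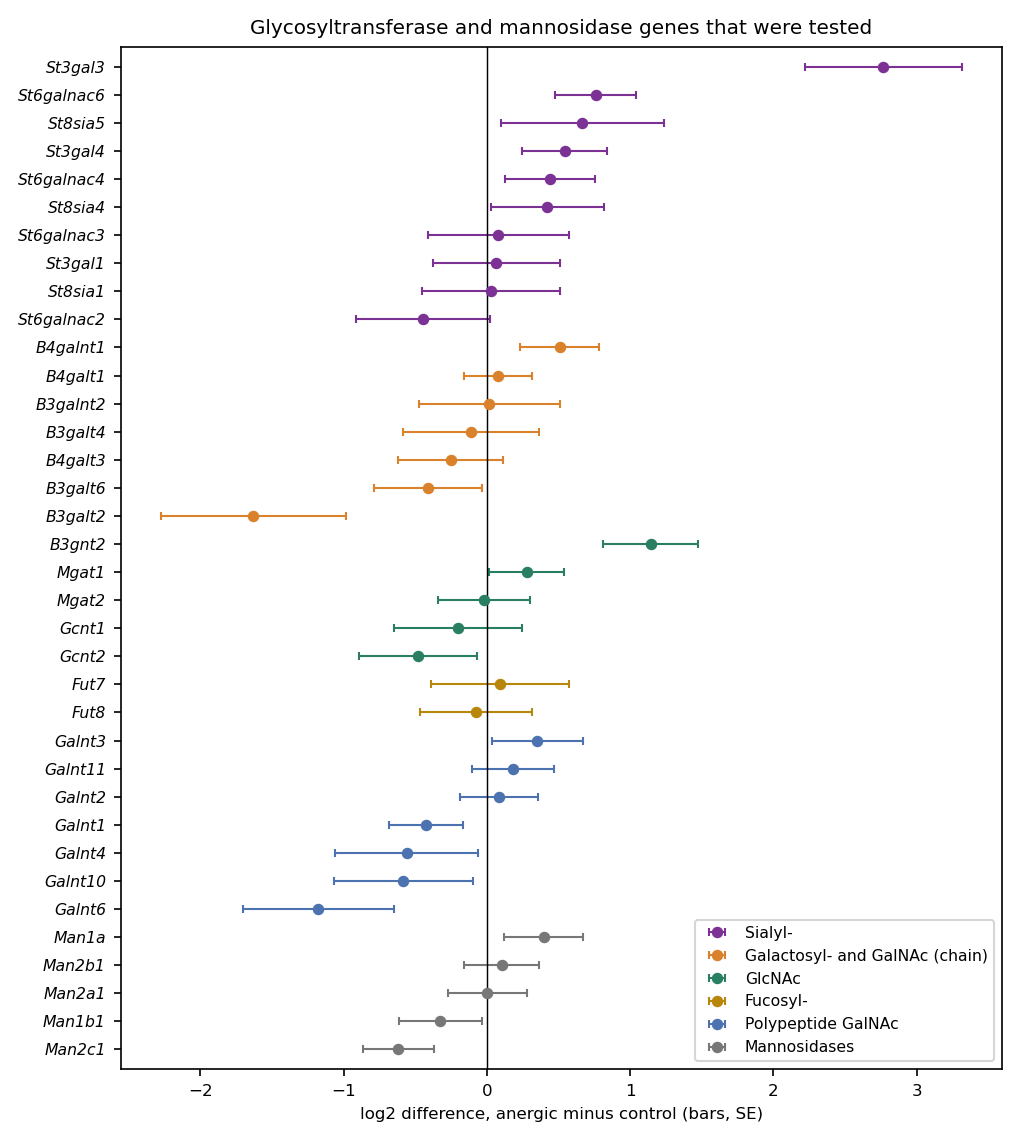
Log2 differences (anergic minus control, horizontal axis) with their SE for the 36 members tested, ordered by role and coloured by it. St3gal3, at 2.77, stood apart from the other 35, which lay between -1.63 and 1.14.

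Several probe sets were present for 10 of the 55 members, and in 7 of them all probe sets differed in the same direction. The exceptions were Mgat1, Galnt4 and B3galnt1, the last of which was at 13.7 or less on every array. The other 45 members had 1 probe set each. Below the filter lay 19 members, of which 7 differed above 0 and 12 below, between -1.33 (Fut4) and 0.50 (St6gal1). In these bulk samples a smaller share of cells with a transcript and less of it per cell cannot be told apart.

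**Figure D4:**
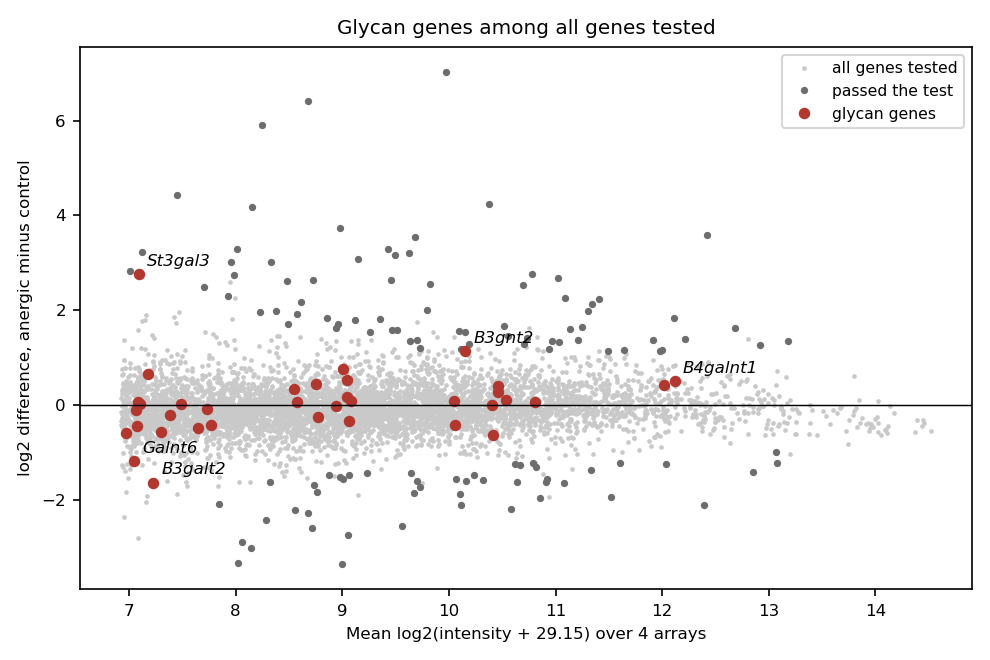
Log2 difference (anergic minus control, vertical axis) against mean log2(intensity + 29.15) for the 5583 genes tested (light grey), those that passed the test (dark grey) and the 36 glycan genes (red). St3gal3 lay near the dim end of the axis at 2.77; the bright members St8sia4 and B4galnt1 lay at 0.42 and 0.51.

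Genes that supply or surround these enzymes were taken from 8 lists, of which 85 genes were tested. In limma 3 of them rose (Rpn2, Cd6 and Itgb2) and 0 fell, beside 1.33% and 0.842% of all genes. The lists were chosen with earlier results of these data known, and Cd6 was tested through its anergic arrays alone. No conclusion is therefore drawn from this count. Among 14 tested genes of sugar nucleotide synthesis 0 passed in limma, and 2 had an unadjusted p under 0.05. The nearest was Nans, which encodes the synthase of sialic acid, at 1909.0 and 1788.3 on anergic arrays and 657.5 and 949.9 on control arrays (1.19 ± 0.27, adjusted p = 0.0581). Both anergic arrays were about level and far above the control arrays. The difference was 1.45 without control array 2 and smaller than 1.19 without control array 1. Pmm1, a phosphomannomutase gene, was at 140.2 and 135.3 on anergic arrays and 310.6 and 255.6 on control arrays (-0.90 ± 0.37, adjusted p = 0.346). Named for their place in the sialic acid route after their values were seen, Gne, which makes the precursor of Nans, differed by -0.17 ± 0.39, Cmas, which activates sialic acid, by 0.02 ± 0.25, and Slc35a1, which carries it into the Golgi, by 0.12 ± 0.33. Of 5 tested nucleotide sugar transporter genes 0 passed in limma and 0 had an unadjusted p under 0.05, with Slc35d1 at 0.69 ± 0.31 and Slc35c2 at -0.48 ± 0.28 (adjusted p = 0.402 and 0.552).

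Of 22 tested genes of N-glycan assembly and trimming in the endoplasmic reticulum, 1 rose and 21 did not pass, with a median of 0.00, and 3 had an unadjusted p under 0.05 (2 higher and 1 lower). Rpn2, a subunit of the oligosaccharyltransferase that attaches the N-glycan, was at 6868.8 and 5468.1 on anergic arrays and 2888.1 and 2534.8 on control arrays (1.17 ± 0.23, adjusted p = 0.0318). Its call was lost when either anergic array was left out (1.01 and adjusted p = 0.413 without the first, 1.33 and adjusted p = 0.127 without the second), with no filter (adjusted p = 0.058) and after centring (1.28, adjusted p = 0.228). Alg2, a mannosyltransferase of the lipid-linked precursor, was at 1447.2 and 1054.7 on anergic arrays and 835.0 and 417.2 on control arrays (1.03 ± 0.35, adjusted p = 0.228). Its difference was 1.5 without control array 1 and smaller than 1.03 without control array 2. The third with an unadjusted p under 0.05 was Edem3, whose product trims mannose for disposal of misfolded proteins, named after its values were seen. It was at 134.9 and 199.0 on anergic arrays and 303.2 and 392.1 on control arrays (-0.95 ± 0.37, adjusted p = 0.308).

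Among 13 other O-glycan and glycolipid transferase genes 0 passed in limma, and 2 had an unadjusted p under 0.05. Ugcg, whose enzyme makes glucosylceramide, the first step of the gangliosides, was at 302.8 and 327.3 on anergic arrays and 758.3 and 784.2 on control arrays (-1.22 ± 0.28, adjusted p = 0.0664). The arrays of each group lay close together and the groups far apart. Lfng, the Notch-modifying fringe enzyme, was at 969.6 and 1143.8 on anergic arrays and 556.7 and 360.1 on control arrays (1.18 ± 0.30, adjusted p = 0.0935). Its difference was 1.48 without control array 1 and smaller than 1.18 without control array 2. Of 7 tested sialidase and lysosomal glycosidase genes 0 passed in limma and 0 had an unadjusted p under 0.05, with Glb1 at -0.42 ± 0.30 and Naglu at 0.42 ± 0.35. Of 2 tested sulfotransferase genes 0 passed in limma and 0 had an unadjusted p under 0.05: Hs2st1 differed by -0.51 ± 0.46 and Ndst2 by -0.09 ± 0.42, above 0 after quantile normalization and after centring.

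On the side of the readers and carriers, 0 of 7 tested lectin genes passed in limma and 3 had an unadjusted p under 0.05 (1 higher and 2 lower), where 12.7% of all genes had one. Lgals3, encoding galectin-3, which binds polylactosamine, was at 2847.6 and 2772.3 on anergic arrays and 4506.5 and 5787.6 on control arrays (-0.86 ± 0.23, adjusted p = 0.117). Its difference was -1.03 without control array 1 and smaller in size than -0.86 without control array 2. Lgals9, encoding galectin-9, was at 312.9 and 594.8 on anergic arrays and 1002.2 and 955.7 on control arrays (-1.13 ± 0.33, adjusted p = 0.152). For these galectins the anergic arrays lay below the control arrays. Lgals4, encoding galectin-4 and named after its values were seen, lay the other way, at 377.2 and 382.2 on anergic arrays and 195.6 and 203.4 on control arrays (0.84 ± 0.33, adjusted p = 0.315). Among 15 tested carrier genes Cd6 (6.42 ± 0.33, adjusted p = 9.67e-06) and the integrin gene Itgb2 (1.63 ± 0.23, adjusted p = 0.00595) rose and 13 did not pass; Itgb2 kept its size but not its call without anergic array 1 (1.65 ± 0.38) or anergic array 2 (1.61 ± 0.39, adjusted p = 0.0694 each). Cd6 was at 4533.6 and 3129.4 on anergic arrays and 16.2 and 14.1 on control arrays. Its control values lay under the filter's intensity of about 92.4, so it was tested through its anergic arrays alone. With control values this dim its size depends on the pseudocount. Chosen after their values were seen, the O-glycan carriers Spn (CD43), Ptprc (CD45) and Selplg, the P-selectin ligand, differed by 0.73 ± 0.35, 0.26 ± 0.25 and -0.03 ± 0.22, and the last was above 0 after quantile normalization and after centring.

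**Figure D5:**
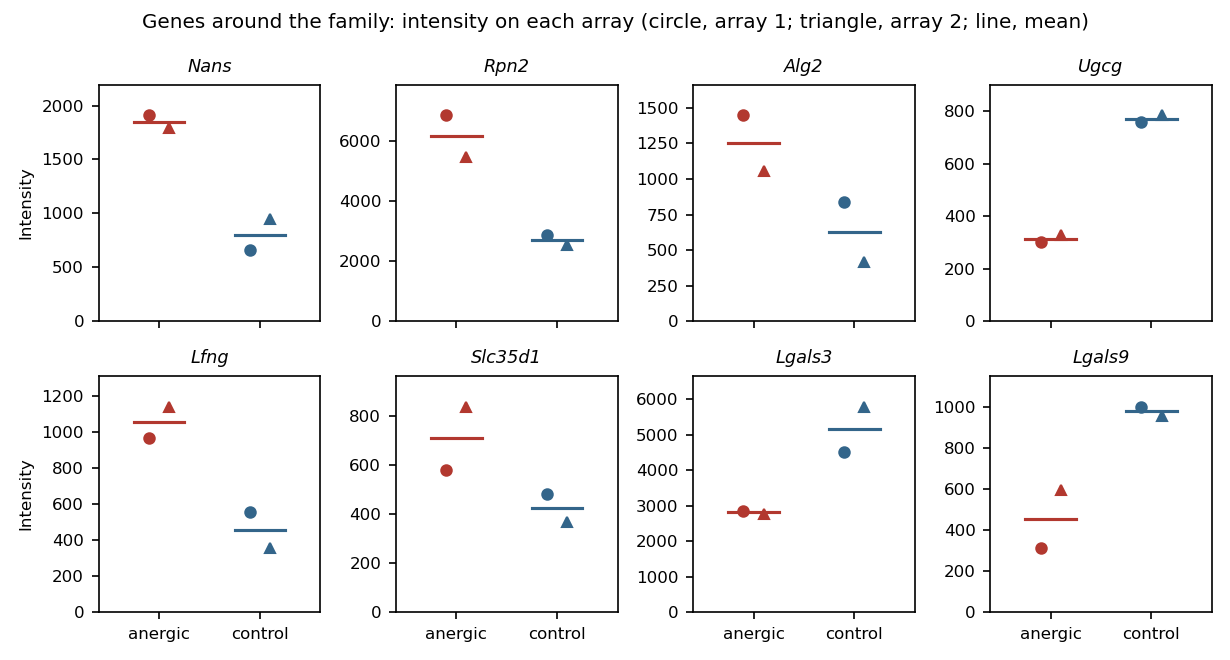
Intensities (linear scale, each vertical axis from 0) of 8 genes around the family on the 2 anergic and 2 control arrays; circles are arrays 1, triangles arrays 2 and lines group means. The groups did not overlap in any panel: Nans, Rpn2, Alg2, Lfng and Slc35d1 were higher on the anergic arrays, and Ugcg, Lgals3 and Lgals9 lower. The genes shown passed or had 1 of the 2 smallest p in their lists, so their separation follows in part from that choice. Over all genes tested, 41.2% did not overlap.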

How the data were processed

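The authors deposited 1 intensity per probe set on a linear scale, per the file's values; how the scans were read, corrected and summarised over probes is not given in the sources used here. RNA was extracted with Trizol, amplified and labelled with biotin, per the labels' protocols and the series' design text. The deposited scale was kept, because the means trimmed by 2% at each end lay within 1.1-fold. Control probe sets (66) were left out. Names came from GEO's platform annotation: 10833 probe sets had 1 symbol, 396 several and 1193 were unlisted. Intensities were taken as log2(intensity + 29.15), the pseudocount being the median of the arrays' 20th percentiles. A gene was kept if its mean log2 value lay above the 40th percentile of the 12422 probe sets other than controls. The test was that of limma 3.58.1 (run in R 4.3.3), using lmFit and a trended eBayes, two-sided, with Benjamini-Hochberg adjustment over 5583 genes and a threshold of 0.05, with 2 residual and 7.76 prior degrees of freedom. The fit was also run on simulated arrays with known changes and independent noise. Here deviations were correlated between arrays of the same number (r = 0.523), so that run does not show how the fit performs on these data. With 2 arrays a group, the smallest two-sided p of an exact permutation test is 0.333. The number of arrays limits precision. Named genes are all members, with values per array for those of textbook role in T cells or an unadjusted p under 0.05, and of each list the genes that passed and the 2 with the smallest p. The members and lists were chosen with earlier results of these data known. Alternatives changed 1 choice at a time; those on the pseudocount, the scaling, the replicate number and the arrays used kept the genes tested, a rule set after the data were seen.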

Additional observations from a re-analysis of the deposited data

How the results depend on the processing

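Under 13 alternatives, 60 genes gave 760 values, of which 680 kept their direction and their side of the threshold. St3gal3 was the 1 member called with all arrays; 0 members rose with no filter, the stricter filter (St3gal3 not tested), quantile normalization or centring, and 0 to 2 rose and 0 to 1 fell when 1 array was left out. The members' median was 0.10 with the stricter filter, 0.15 after centring, and between -0.14 and 0.15 with 1 array left out. Of the pathway genes, 1 to 5 rose and 0 to 2 fell with 1 array left out. Over all genes, 46 rose and 13 fell after centring, 30 fell with no filter, and 30 to 164 rose and 20 to 117 fell with 1 array left out. Fits with 1 array left out take their spread from 1 pair, so calls gained in them support nothing.

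The titles give both groups the numbers 1 and 2, but nothing says that a number marks a shared culture or day. The differences between arrays 1 and 2 correlated across genes between the groups (r = 0.523). With the replicate number as a block, 354 genes rose and 366 fell, 3 members rose (B3gnt2, St3gal3 and St6galnac6) and 3 fell (B3galt2, Galnt6 and Man2c1), and 8 pathway genes rose and 5 fell.

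Differences that did not pass with all arrays changed sign in places. After quantile normalization Fut8 was at 0.0135, Mgat2 at 0.0502, Ndst2 at 0.0131, B3galt4 at 0.0260 and Selplg at 0.0105. After centring Fut8 was at 0.0289, Mgat2 at 0.0858, Ndst2 at 0.0157 and Selplg at 0.0808. With probe sets averaged Mgat1 was at -0.0356 and Galnt4 at 0.0842, and B3galnt2 was at -0.00668 with a pseudocount equal to the arrays' median. With 1 array left out the ranges were -0.56 to 0.69 for St3gal1, -0.47 to 0.53 for St8sia1, -0.55 to 0.73 for Fut7, -0.28 to 0.13 for Fut8, -0.53 to 0.13 for Gcnt1 and -0.00134 to 0.16 for B4galt1. They were -0.27 to 0.23 for Mgat2, -0.28 to 0.29 for Man2a1, -0.28 to 0.10 for Ndst2, -0.40 to 0.44 for B3galnt2, -0.35 to 0.13 for B3galt4 and -0.63 to 0.12 for B4galt3. They were -0.12 to 0.29 for Galnt2, -0.11 to 0.32 for Man2b1, -0.32 to 0.48 for St6galnac3, -0.28 to 1.12 for St8sia4 and -0.12 to 1.46 for St8sia5. They were -0.59 to 0.25 for Gne, -0.11 to 0.14 for Cmas, -0.0889 to 0.32 for Slc35a1, -0.00728 to 0.52 for Ptprc and -0.13 to 0.0812 for Selplg. The cause was not tested.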
